A study of Mus musculus with 89 samples.

Results

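Mymx, Nebl and Gm33027 are 3 of the 54146 genes in the deposited tables of mouse embryonic stem cells (ESCs), and were selected on their measured change between −E and +E+N, a steep fall when the transcription factor Esrrb was removed on its own. All 3 were found by their symbol, 1 row each. That change is given as a description with no test. Tests on the 3 genes are kept to comparisons that the choice did not use, although the −E and +E+N libraries entered the same fits and so share their filter and estimate of spread.

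Mymx encodes myomixer, a small membrane peptide that works with Mymk to fuse myoblasts into muscle fibres. Nebl encodes nebulette, a nebulin family protein of the cardiac Z-disc, where thin filaments are anchored, and a shorter form with a LIM domain that is found in non-muscle cells. Gm33027 is annotated as a long intergenic non-coding RNA. Esrrb is an orphan nuclear receptor of the naive pluripotency network, and Nr5a2 is a second one that recognises a closely related DNA sequence.

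RNA was sequenced from 20 libraries in 8 groups, 2 replicates of each of 4 states in FCS/LIF (serum with the cytokine LIF) and 3 of each in 2i/LIF (inhibitors of Mek and Gsk3 with LIF). All cells derive from EKOiE ESCs, in which the endogenous Esrrb gene is knocked out and a doxycycline (Dox) inducible Esrrb transgene takes its place. With Dox at 1 µg/ml these cells are +E+N, and 2 days after its withdrawal they are −E. EKOiE NrKO cells also carry a disrupted exon 4 of Nr5a2, encoding its DNA-binding domain, on both alleles. They are −N with Dox and −E−N 2 days without it, so that the controls of every comparison lack endogenous Esrrb too. The supplement describes RNA-seq of the disrupted alleles in 1 clone, clone 4, while the labels name none, so the effects of a clone cannot be separated from those of losing Nr5a2, and medium and culture batch cannot be told apart. The study describes replicates as independent experiments, and p-values measure the spread between these libraries. The libraries held 36514172 to 45443379 counts in FCS/LIF and 26653035 to 32526534 in 2i/LIF. ChIP-seq samples of the series were not analysed here.

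The targeted gene followed the labels in FCS/LIF, where Esrrb stood at 321 ± 58.9 counts per 1000000 (CPM, mean ± SD, n = 2) for +E+N against 70.7 ± 6.53 for −E. With Nr5a2 disrupted it was 243 ± 30.0 CPM with Dox and 30.6 ± 1.63 CPM without. In 2i/LIF the same pairs were 569 ± 54.6 against 414 ± 34.4 CPM and 482 ± 66.1 against 145 ± 35.3 CPM (n = 3), so the −E libraries of 2i/LIF kept most of the Esrrb reads of +E+N. These reads can include transcripts of the disrupted endogenous gene, and protein was not measured here. For cells in the medium with the inhibitors, the paper reports that Esrrb binding to DNA was ablated after Dox withdrawal. The reads therefore do not show how much Esrrb protein remained. Nr5a2 reads cannot check the NrKO label at the level of the whole gene, since 1 exon was disrupted.

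In mm10, Mymx (ENSMUSG00000079471) occupies chromosome 17 from 45600971 to 45602102, minus strand, and has 4 annotated transcripts of 437 to 804 bases, each of 2 exons. Nebl (ENSMUSG00000053702) spans 387556 bases of the minus strand of chromosome 2, from 17343909 to 17731464, with 13 annotated transcripts of 335 to 8079 bases. Gm33027 (ENSMUSG00000108713) occupies chromosome 7 from 129398102 to 129403090, also on the minus strand, and has 1 transcript of 4664 bases in 2 exons. Each row counts all transcripts of its gene. For Nebl, the length implied by its counts and TPM ranged from 2442 to 5100 bases in the libraries with Dox, so its TPM moves with the estimated mix of transcripts, and CPM is used between libraries.

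The promoter windows of RefSeq (GRCm38.p6) hold 4 starts of Nebl. The window of the most upstream start, chr2:17731085-17731384 on the minus strand, is shown because the gene moved with Esrrb in both media, and its capitals mark the 50 bases from the annotated start onward.
Nebl: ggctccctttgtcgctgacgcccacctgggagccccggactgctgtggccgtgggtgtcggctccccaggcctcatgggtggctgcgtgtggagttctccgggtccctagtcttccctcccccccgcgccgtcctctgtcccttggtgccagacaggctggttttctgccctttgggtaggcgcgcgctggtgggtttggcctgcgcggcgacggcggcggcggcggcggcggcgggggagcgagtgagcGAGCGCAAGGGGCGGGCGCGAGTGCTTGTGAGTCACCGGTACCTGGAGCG
None of the 4 windows holds TCAAGGTCA or TCAAGGCCA, the forms of the Esrrb and Nr5a2 motif, or their shorter forms AAGGTCA and AAGGCCA, which lie inside them, on either strand. Of 32817 such windows of all genes, 0.424% hold TCAAGGTCA, 0.591% hold TCAAGGCCA, 4.72% hold AAGGTCA and 6.21% hold AAGGCCA. This says only that these letters are not in these windows.

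Mymx stood far higher in 2i/LIF than in FCS/LIF. In FCS/LIF the +E+N libraries held 13.5 and 9.73 CPM, and the −E libraries 1.21 and 0.968 CPM. The −N libraries held 6.55 and 5.19 CPM and the −E−N libraries 0.479 and 0.780 CPM. Both states without Esrrb thus lay below both states with it, with no overlap. In 2i/LIF the levels were 35.9, 42.7 and 52.7 CPM in +E+N and 45.7, 52.7 and 66.5 CPM in −E. They were 40.3, 54.9 and 62.9 CPM in −N and 49.5, 55.2 and 61.0 CPM in −E−N. The ranges of all 4 states of 2i/LIF overlapped, although among libraries of the same replicate number +E+N was the lowest each time, and each of their 12 libraries lay above every FCS/LIF library.

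Nebl was a low gene in all groups and was lower without Esrrb in both media. The FCS/LIF libraries held 4.57 and 4.88 CPM in +E+N and 0.334 and 0.581 in −E. For −N they held 5.04 and 4.86 CPM, against 0.639 and 0.453 CPM for −E−N. The +E+N and −N libraries overlapped, as did the −E and −E−N libraries, and these sets were far apart. In 2i/LIF Nebl was counted 43, 33 and 54 times in +E+N and 34, 49 and 56 times in −N. It was counted 4, 1 and 3 times in −E and 2, 4 and 10 times in −E−N. The states without Esrrb were again separate from those with it.

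Gm33027 came closest to zero. In FCS/LIF its counts were 83 and 152 for +E+N and 64 and 56 for −N. Without Dox they were 2 and 2 for −E and 2 and 0 for −E−N. In 2i/LIF it was counted 258, 183 and 169 times in +E+N and 86, 67 and 69 times in −N. It was counted 40, 7 and 3 times in −E and 7, 7 and 5 times in −E−N. Replicate 1 of −E in 2i/LIF stood apart with its 40 counts, and still lay below each library with Dox in that medium. Unlike Nebl, Gm33027 was lower in −N than in +E+N in every library of both media.

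**Figure D1:**
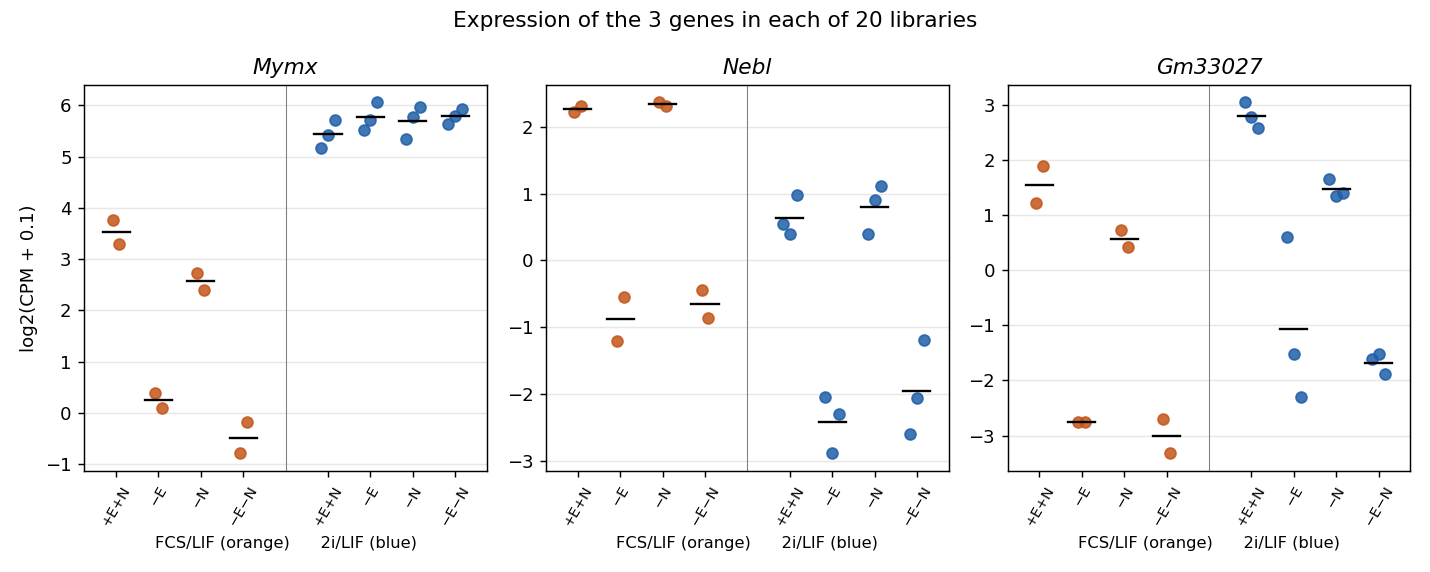
Level of Mymx, Nebl and Gm33027 as log2(CPM + 0.1) in each library (points) with the mean of each group (bars), FCS/LIF in orange and 2i/LIF in blue, each panel with its own axis. Mymx is high in all 12 libraries of 2i/LIF, while Nebl and Gm33027 are low without Dox in both media.

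Per length, Mymx was the most abundant of the 3, at 36.9 ± 7.76 TPM in +E+N of FCS/LIF (n = 2) and 121 ± 25.6 TPM in 2i/LIF (n = 3). Nebl stood at 1.38 ± 0.184 and 0.470 ± 0.121 TPM, and Gm33027 at 0.740 ± 0.269 and 1.79 ± 0.251 TPM. The order of Nebl and Gm33027 was thus opposite in the 2 media. On a common CPM scale over all 20 libraries, the 4 highest groups for Mymx were those of 2i/LIF, from 55.6 to 44.3 CPM, with each range overlapping the next. FCS/LIF followed in the order +E+N, −N, −E and −E−N, from 11.3 to 0.620 CPM, with no overlap between neighbours. For Nebl the order was −N and +E+N of FCS/LIF (4.88 and 4.60 CPM, not overlapping on this scale), −N and +E+N of 2i/LIF (1.71 and 1.50 CPM), and then the groups without Esrrb from 0.538 to 0.0943 CPM, which overlapped from each to the next. For Gm33027 it was +E+N of 2i/LIF (6.99 CPM), +E+N of FCS/LIF and −N of 2i/LIF (2.83 and 2.73 CPM, overlapping), −N of FCS/LIF (1.38 CPM), and then the groups without Esrrb from 0.595 to 0.0263 CPM. The −E range of 2i/LIF reached into that of −N in FCS/LIF.

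The changes that chose the genes were large. In −E against +E+N, the fitted log2 fold change in FCS/LIF was −3.41 for Mymx, −3.36 for Nebl and −5.84 for Gm33027, where 2.53% of the 15636 genes tested were called lower and 3.23% higher (adjusted p under 0.01 and a fold change over 1.5). Summed counts of Gm33027 were 235 and 4, a ratio of 61.5 with a 95% exact interval of 23.7 to 228 that covers counting error only. Among the lowered genes that averaged 100 counts or more, Mymx and Nebl ranked 1 and 2 of 330 by fall, and with no such limit Gm33027, Mymx and Nebl ranked 3, 7 and 8 of 396. These ranks restate how the genes were chosen. With the limit, the next were Jam2 (−3.32), an adhesion molecule, Nupr1 (−3.15), a stress-induced nuclear protein, and Ly6a (−3.14), the Sca-1 surface antigen. Gm33027, with a mean of 45.1 counts, was below that limit. In 2i/LIF the change was −3.92 for Nebl, −3.54 for Gm33027 and 0.33 for Mymx, where 1.11% of 14355 genes were called lower and 0.439% higher. Without the −E library of 40 counts, the change of Gm33027 in 2i/LIF was −5.28.

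Loss of Nr5a2 alone left Nebl near its level in +E+N, with a log2 difference in −N of 0.07 in FCS/LIF and 0.19 in 2i/LIF. Mymx differed by −0.99 and 0.27, and Gm33027 by −1.07 and −1.36. These libraries share +E+N with the comparison above and are given with no test. In −E−N against +E+N the values were −4.19 and 0.34 for Mymx and −3.11 and −3.00 for Nebl. For Gm33027 in 2i/LIF the value was −4.98, and in FCS/LIF its fitted −6.66 rests on 2 counts in −E−N. Set beside −E, the −E−N libraries differed by −0.78 and 0.01 for Mymx and by 0.25 and 0.92 for Nebl, and in 2i/LIF by −1.44 for Gm33027. Without the −E library of 40 counts that last value was 0.30, so its direction rested on that library.

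**Figure D2:**
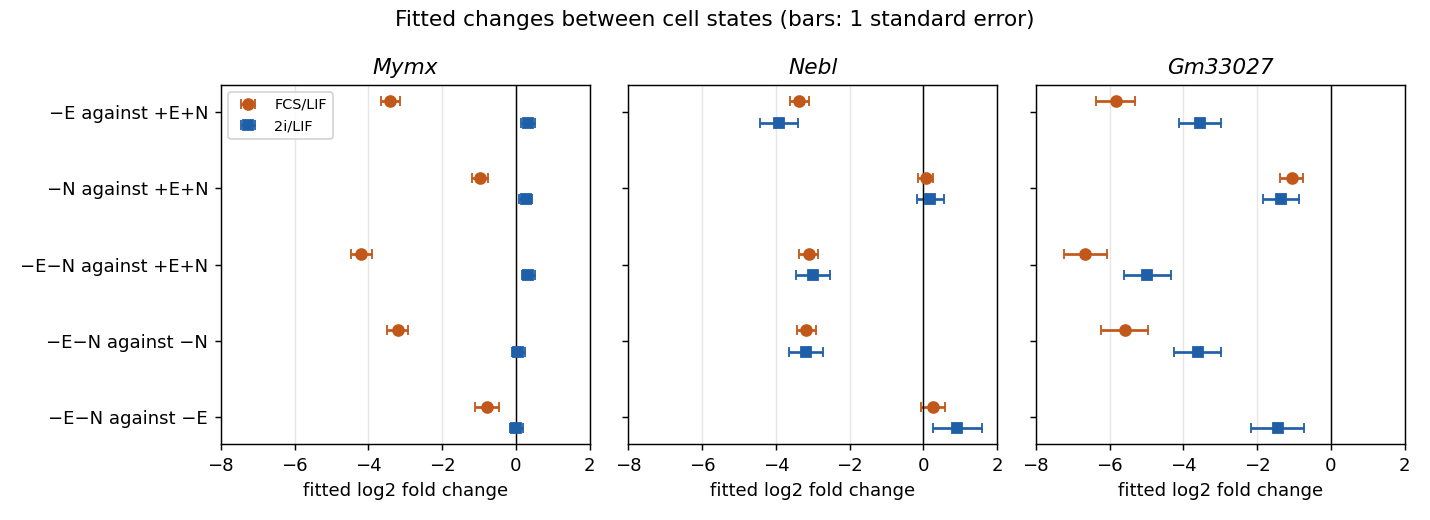
Fitted log2 fold change of each gene for 5 comparisons of states in FCS/LIF (orange circles) and 2i/LIF (blue squares), with bars of 1 standard error. The −E−N against −E value of Gm33027 in FCS/LIF is left out since both groups held 2 counts or fewer in each library. Nebl and Gm33027 lie well left of 0 wherever Esrrb was lost, and Mymx does so in FCS/LIF alone.

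The same loss of Esrrb in cells that already lacked Nr5a2, −E−N against −N, did not choose the genes. In FCS/LIF Mymx, Nebl and Gm33027 were called lower, where 3.49% of all genes were called lower. The log2 fold change was −3.21 (SE 0.284, adjusted p = 0.000104 by the edgeR quasi-likelihood test) for Mymx, from 5.87 ± 0.962 to 0.630 ± 0.213 CPM (n = 2). For Nebl it was −3.18 (SE 0.254, adjusted p = 6.05e-05), from 4.95 ± 0.128 to 0.546 ± 0.131 CPM. Summed counts of Gm33027 were 120 in −N and 2 in −E−N, a ratio of 53.6 (95% exact interval 14.5 to 448). Its adjusted p was 0.000396, and its fitted −5.59 depends on how 0 and 2 counts are handled, reaching −8.86 without −E−N replicate 1 and −4.65 without −E−N replicate 2. Nebl and Gm33027 passed the filter on low counts only through the states with Dox, in which they are high, in both media, so that their calls are not counted as support and the values stand as measurements.

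In 2i/LIF, Nebl and Gm33027 were lower in −E−N than in −N and were called, where 3.36% of 14355 genes were called lower. These calls too are not counted as support, because of the filter. Nebl fell by 3.19 on the log2 scale (SE 0.465, adjusted p = 0.000661), from 1.69 ± 0.437 to 0.182 ± 0.142 CPM (n = 3). Gm33027 fell by 3.62 (SE 0.644, adjusted p = 0.00231), from 2.68 ± 0.333 to 0.215 ± 0.0402 CPM. Its call was lost without −E−N replicate 2 (adjusted p = 0.0106) or replicate 3 (adjusted p = 0.0116), while the fold change stayed between −3.72 and −3.48. Mymx was not called, with a log2 difference of 0.07 (95% interval −0.32 to 0.46, adjusted p = 0.838) and 52.7 ± 11.5 CPM in −N beside 55.2 ± 5.74 CPM in −E−N. The direction of that small difference turned without −N replicate 1 (−0.09) or −E−N replicate 3 (−0.01). In bulk RNA, fewer cells expressing a gene and less RNA per cell cannot be told apart.

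Other transcripts moved in the same libraries. The summed level of 14 pluripotency genes was 2861 to 3147 CPM in −N and 1537 to 1688 CPM in −E−N of FCS/LIF, and 3848 to 4179 and 2300 to 2936 CPM in 2i/LIF. The summed level of 18 markers of other cell types was 710 to 967 CPM in −N and 1347 to 2087 CPM in −E−N of FCS/LIF, and 307 to 356 and 419 to 492 CPM in 2i/LIF, with 0 of the 18 at 0 counts throughout any of these groups. Their part in the falls was not tested.

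The difference between media was then tested directly, in a fit of all 20 libraries, as the −E−N against −N response in FCS/LIF minus that in 2i/LIF. Mymx was called, with a difference of −3.25 (SE 0.396, adjusted p = 0.000169), where 1.74% of 16147 genes passed an adjusted p of 0.01, and it stayed between −3.65 and −2.95 when each library was left out. Esrrb reads differed too, by −1.23 in the same edgeR test (adjusted p = 0.00739). They were at −2.99 in FCS/LIF and −1.74 in 2i/LIF, and their part in the Mymx difference was not tested. For Nebl the difference was 0.04 (95% interval −0.83 to 0.91, adjusted p = 0.980). For Gm33027 it was −1.92 (95% interval −4.85 to 1.01, adjusted p = 0.528), an interval too wide to show a difference of this size at 0 to 7 counts per −E−N library. In −N cells, which kept Dox, Mymx was higher in 2i/LIF than in FCS/LIF by 3.21 (SE 0.237, adjusted p = 7.98e-09), where 15% of genes were called higher. Nebl was lower in 2i/LIF by −1.51 (SE 0.325, adjusted p = 0.000804), where 16.6% were called lower. Gm33027 was not called, at 0.99 (95% interval −0.11 to 2.08, adjusted p = 0.115). Other genes that differ between media are thus common, and medium cannot be told apart from culture batch.

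**Figure D3:**
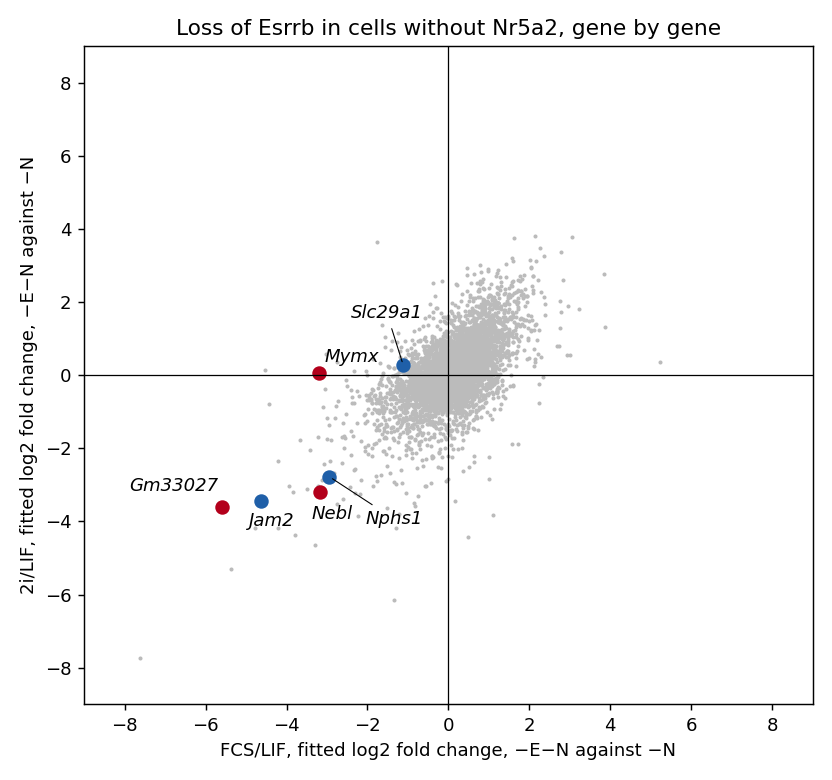
Fitted log2 fold change of −E−N against −N in FCS/LIF (horizontal) and 2i/LIF (vertical) for 13844 genes tested in both media (grey), with the 3 genes in red and Slc29a1, Jam2 and Nphs1 in blue. Nebl at −3.18 and −3.19 and Gm33027 at −5.59 and −3.62 lie in the lower left, and Mymx at −3.21 and 0.07 lies on the horizontal axis.

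The genes beside Mymx were examined next. Of 13 annotated genes within 100000 bases, 9 passed the filter in either medium, and the 6 nearest are given. Slc29a1, the nucleoside transporter Ent1, lies 1364 bases downstream of Mymx and is read from the same strand. In FCS/LIF it stood at 101.8 and 87.0 CPM for +E+N and 37.9 and 37.9 CPM for −E, and at 77.2 and 64.9 CPM for −N and 33.0 and 32.6 CPM for −E−N. In 2i/LIF it ranged from 123 to 134 CPM for +E+N and 136 to 182 CPM for −E, and from 156 to 168 CPM for −N and 178 to 210 CPM for −E−N. Slc29a1 therefore was lower without Esrrb in FCS/LIF and not in 2i/LIF, as Mymx was, by a smaller amount. In 2i/LIF Slc29a1 was called higher in −E−N than in +E+N, by 0.60 (edgeR, adjusted p = 0.000378). Against +E+N it was not called in −E or −N there.

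In −E−N against −N, Slc29a1 fell by 1.12 on the log2 scale in FCS/LIF (SE 0.0988, adjusted p = 0.000104), and was at 0.27 in 2i/LIF (SE 0.0978, adjusted p = 0.0703). The difference between media was −1.37 (SE 0.157, adjusted p = 0.000119). Tmem151b, 51293 bases downstream, fell in both media, by 1.33 in FCS/LIF (adjusted p = 0.00118) and by 1.77 in 2i/LIF (adjusted p = 0.00302). Its highest adjusted p with 1 library left out was 0.0130 in FCS/LIF, without −E−N replicate 2, and 0.0149 in 2i/LIF, without −E−N replicate 3. The 3 expressed genes between them were not called in either medium. Hsp90ab1, a cytosolic chaperone, was at −0.20 and −0.00, Slc35b2, a Golgi sulfate donor transporter, at 0.15 and −0.08, and Nfkbie, an inhibitor of NF-kappaB, at 0.14 and −0.08. Capn11, a calpain upstream of Mymx, passed the filter in 2i/LIF alone, where it was at −0.03. No annotated neighbour of Nebl (3 within this distance) or Gm33027 (1, Plpp4) passed the filter.

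**Figure D4:**
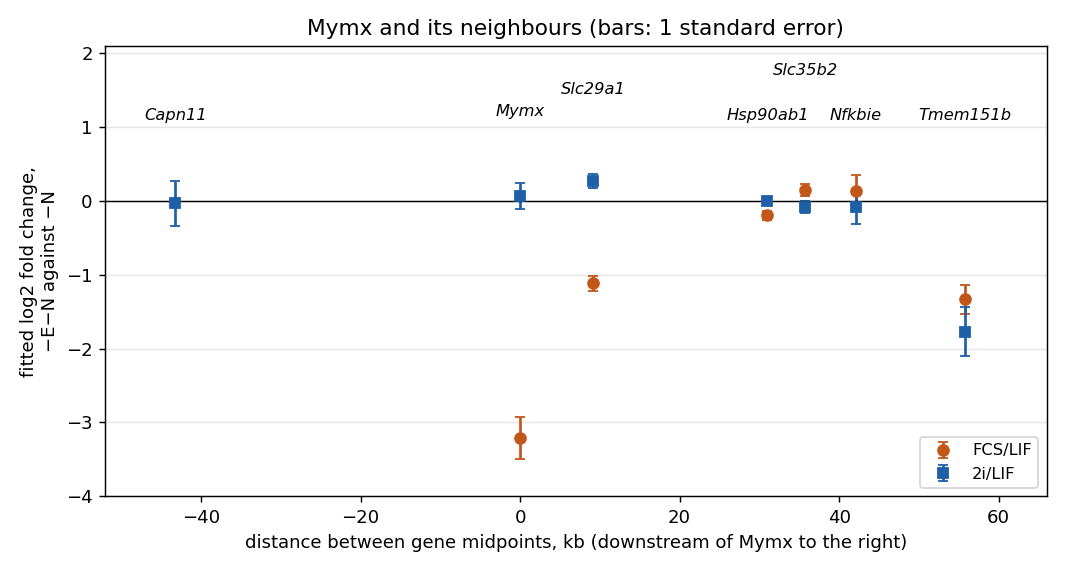
Fitted log2 fold change of −E−N against −N, with bars of 1 standard error, for Mymx and its 6 nearest expressed neighbours against the distance between gene midpoints in kb. Mymx at −3.21 and Slc29a1 at −1.12 are below 0 in FCS/LIF (orange) and not in 2i/LIF (blue), and Tmem151b is below 0 in both.

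Since Mymx and Nebl are known from muscle, other genes of their pathways were counted. Mymk, the fusion partner of Mymx, had at most 8 counts in any library, and the muscle regulators Myod1 and Myog at most 6 and 9, while the 27 muscle markers together summed to 139 to 198 CPM in FCS/LIF and 144 to 429 CPM in 2i/LIF, with 0 to 5 of them at 0 counts throughout a group. Of 21 myoblast fusion genes tested in FCS/LIF, 3 rose and 2 fell in −E−N against −N, with a median log2 fold change of 0.19 beside 0.02 over all genes, of which 6.57% were called higher and 3.49% lower. In 2i/LIF 1 of 20 rose and 4 fell, with a median of 0.01 beside 0.02 over all genes, of which 3.39% were called higher and 3.36% lower. Jam2 and Nphs1, surface proteins of the immunoglobulin superfamily, fell in both media. Jam2 fell by 4.64 in FCS/LIF (adjusted p = 2.54e-08) and 3.44 in 2i/LIF (adjusted p = 3.7e-07). Nphs1, also known as nephrin, fell by 2.94 (adjusted p = 4.73e-06) and 2.78 (adjusted p = 0.000221). Cdh2, N-cadherin, rose by 0.86 in FCS/LIF (adjusted p = 0.000576), and Dysf, dysferlin, rose by 1.28 in 2i/LIF (adjusted p = 0.00183). Myof, a dysferlin relative of the fusion list, fell by 1.18 in 2i/LIF (adjusted p = 0.000234) and was at 0.70 in FCS/LIF.

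Of 32 nebulin family, Z-disc and thin-filament genes tested in FCS/LIF, 9 rose and 0 fell in −E−N against −N, with a median of 0.35, beside 6.57% of all genes called higher and 3.49% lower. The rises included Pdlim3 (1.80, adjusted p = 0.000241), a Z-disc adaptor, Cryab (1.47, adjusted p = 0.000459), a small heat shock protein, and Lmod1 (1.39, adjusted p = 0.00229), an actin nucleator. Leaving out −E−N replicate 1 or 2 ended the call of Lmod1 (adjusted p = 0.0130 and 0.0219). In 2i/LIF 3 of 29 rose and 2 fell, with a median of −0.03, beside 3.39% of all genes called higher and 3.36% lower. Pdlim3 rose by 2.20 (adjusted p = 0.00156), Zyx by 1.65 (adjusted p = 0.00676), while Csrp2 fell by 0.93 (adjusted p = 9.71e-06). Leaving out any 1 of 5 of the 6 libraries ended the call of Zyx (adjusted p up to 0.0289, without −E−N replicate 3), and leaving out −N replicate 2 ended that of Pdlim3 (adjusted p = 0.0112). The tested nebulin relatives did not fall in both media as Nebl did. Neb was at 0.34 (adjusted p = 0.281) and 0.25 (adjusted p = 0.691). Lasp1 rose in FCS/LIF, by 0.42 (adjusted p = 0.00109), and was at −0.51 in 2i/LIF, under the fold limit in both media. Nrap had at most 24 counts in any library.

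Of the 16 muscle cell and cardiomyocyte markers tested in FCS/LIF, 2 rose and 2 fell, where 6.57% of all genes were called higher and 3.49% lower. The cardiac and skeletal actins Actc1 (3.16, adjusted p = 0.000242) and Acta1 (1.81, adjusted p = 0.0006) rose, and the light chain Mylpf fell by 1.73 (adjusted p = 7.75e-05). In 2i/LIF 1 of 10 rose, Tnni1 (1.42, adjusted p = 0.00446), beside 3.39% of all genes called higher, and its call was lost without replicate 2 or 3 of either state (adjusted p up to 0.0245, without −N replicate 2). Of 14 pluripotency genes, 12 fell in FCS/LIF and 9 in 2i/LIF, with medians of −1.28 and −0.81, beside 3.49% and 3.36% of all genes called lower. Nr0b1, a nuclear receptor corepressor, was at −5.38 and −5.31, and Klf4 at −2.94 and −1.37. Zfp42 (Rex1) was at −3.10 in FCS/LIF and Fgf4 at −2.16 in 2i/LIF. Of the markers of other cell types, 6 of 18 rose and 1 fell in FCS/LIF, led by T (2.13), Col1a1 (1.59) and Gata3 (1.22), and 4 of 15 rose in 2i/LIF, led by Cdx2 (2.54), Krt18 (1.65) and Krt8 (1.51), beside 6.57% and 3.39% of all genes called higher. Gata3 in 2i/LIF lost its call without any 1 of the 6 libraries (edgeR, adjusted p 0.0113 to 0.0379). In FCS/LIF, Krt18 ranged from 0.69 to 1.35 and Krt8 from 0.73 to 1.41 with a library left out, and neither kept its call in all of these fits. The call of Cdx2 was lost without replicate 2 or 3 of either state (adjusted p up to 0.0205, without −N replicate 2), and that of Col1a1 without −E−N replicate 1 (adjusted p = 0.0104).

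After Esrrb loss alone, −E against +E+N, 3.23% of all genes were called higher and 2.53% lower in FCS/LIF. There 1 of 21 fusion genes rose and 2 fell, and 5 of 32 Z-disc and thin-filament genes rose and 0 fell. Of the muscle markers 2 of 16 rose and 0 fell, of the pluripotency genes 0 of 14 rose and 8 fell, and of the other markers 1 of 18 rose and 0 fell. In 2i/LIF, over the 5 lists together, 1 of 86 genes rose and 4 fell, beside 0.439% of all genes called higher and 1.11% lower.

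**Figure D5:**
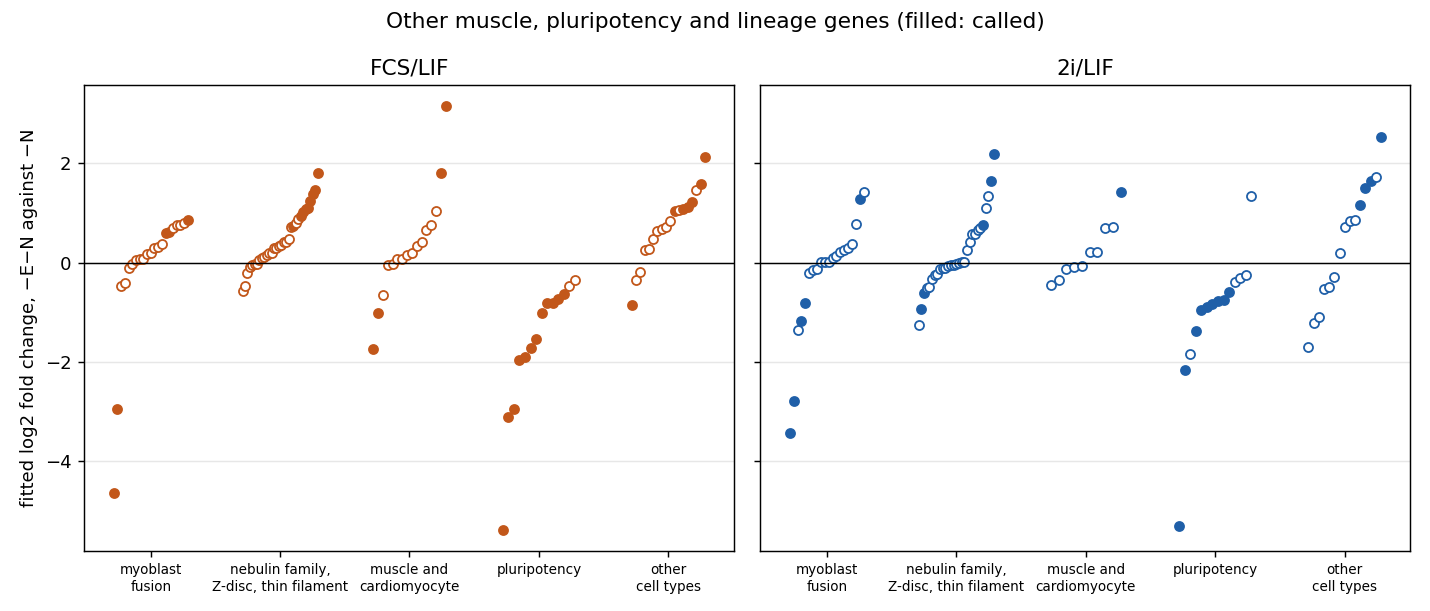
Fitted log2 fold change of −E−N against −N for each tested gene of 5 lists, ordered within each list, in FCS/LIF (left) and 2i/LIF (right), with filled points for called genes. Jam2 at −4.64 and −3.44 is the lowest fusion gene in both media, and 9 of 32 Z-disc and thin-filament genes are filled above 0 in FCS/LIF.

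The genes most like each member in pattern were found by the Pearson correlation of log2 CPM over all 20 libraries, given as a description, since the libraries fall into groups that share state and medium. For Mymx they were H2-M6-ps (r = 0.987), Slc29a1 (r = 0.985) and Klf2 (r = 0.978). H2-M6-ps is a pseudogene of the MHC class I family, whose reads may be shared with near copies, and Klf2 is a naive pluripotency factor. In −E−N against −N, H2-M6-ps was at −2.50 in FCS/LIF and −0.29 in 2i/LIF and Klf2 at −1.71 and −0.25, a likeness that their choice by correlation with Mymx in these libraries fixes in part. For Nebl they were Ldhb (r = 0.932), a lactate dehydrogenase subunit, Smyd1 (r = 0.907), a muscle histone methyltransferase, and Qk (r = 0.906), an RNA-binding protein. Ldhb was at −2.40 in FCS/LIF and −2.17 in 2i/LIF, and Smyd1 at −2.32 and −3.23. Qk was at −0.21 and −0.23, under the fold limit. For Gm33027 they were Ube2c (r = 0.932), a ubiquitin-conjugating enzyme of mitosis, Zfp607b (r = 0.930), a zinc finger protein, and Ly6a (r = 0.930). Ly6a was at −4.21 and −4.18, Zfp607b at −2.56 and −1.71, and Ube2c was at −0.47 and −0.30, under the fold limit.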

How the data were processed

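RNA-seq of 20 libraries was used. Poly-A selected, stranded, paired-end reads were aligned to mm10 with STAR and quantified with RSEM by the authors, with versions and annotation not given in the sources used here. The expected counts per gene were deposited without normalization between libraries and were rounded here. The TPM values were also computed by the authors and deposited. Of 54238 rows, 92 are ERCC sequences with 0 counts and were left out. Coordinates come from GENCODE vM21 on mm10.

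Groups come from the labels. The libraries of a medium, all 4 states, entered 1 fit in edgeR 4.0.16 (R 4.3.3) with TMM normalization, the quasi-likelihood test and Benjamini-Hochberg adjustment, over genes reaching 20 counts in every replicate of some state (15636 in FCS/LIF, 14355 in 2i/LIF). Called means an adjusted p under 0.01 and a fold change over 1.5, or the adjusted p alone for the difference between media, fitted over all 20 libraries (16147 genes). CPM are counts per 1000000 of the TMM-scaled total. Standard errors are the log2 fold change over the root of the F statistic. Count ratios have 95% exact (Clopper-Pearson) intervals from SciPy, which cover counting error only. Total counts per library were 26653035 to 45443379, and sampling error is largest for genes near 20 counts.

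Named are the 3 genes, Esrrb and Nr5a2, up to 3 called genes with the largest change in each of 5 lists (125 genes) and medium, the 6 nearest expressed neighbours within 100000 bases, the 3 genes most correlated with each (log2 CPM, prior count 2), and the 3 ranked next by fall. Myof, Mymk, Myod1, Myog, Neb, Lasp1, Nrap and Plpp4 fall outside this rule and were chosen after seeing their values. The members and lists were chosen with earlier results of these data known. Alternatives were DESeq2 1.42.0, its size factors, no filter, filterByExpr, a block for the replicate number, fits of the compared groups alone or of all 20 libraries, limma 3.58.1 with a TPM pseudocount of 1 or 0.1 on the log2 scale, other limits, and leaving out each library. The steps were tested on simulated data.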

Additional observations from a re-analysis of the deposited data

Results flagged for a closer look

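Mymx stood out because its −E−N against −N response differed between FCS/LIF and 2i/LIF by −3.25 on the log2 scale in a direct test (edgeR, adjusted p = 0.000169), with lower levels in 2 of 2 −E−N libraries of FCS/LIF than in any −N library and overlapping levels in 2i/LIF. Its neighbour Slc29a1 stood out by the same test at −1.37 (adjusted p = 0.000119), and the targeted gene Esrrb at −1.23 (adjusted p = 0.00739). The genes picked for a pattern like that of a member in these libraries differed between media by −2.18 (H2-M6-ps), −1.44 (Klf2) and −0.83 (Zfp607b), values given as a description because that choice used the same libraries. The difference of Zfp607b lost its call without any 1 of 7 of the 10 libraries. No test for a single library that stands apart was run on groups of 2 or 3 libraries, and the −E library of 2i/LIF with 40 counts of Gm33027 was noticed without one.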

How the results depend on the processing

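Among the alternative values for the 3 genes in the tested comparisons, 173 kept their direction and call, 6 lost a call and 10 turned direction. Mymx kept its call in FCS/LIF, its lack of one in 2i/LIF and its difference between media under every alternative run. With limma on log2(TPM + 1), Gm33027 in FCS/LIF was at −0.43 and uncalled, and Nebl in 2i/LIF against FCS/LIF (−N) at −0.52. With log2(TPM + 0.1), Nebl in FCS/LIF was at −2.01 and uncalled, and in 2i/LIF against FCS/LIF at −1.03. At low TPM values a pseudocount shrinks a change. The TPM of Nebl also moves with its estimated mix of transcripts. In FCS/LIF it averaged 1.355 ± 0.205 in −N and 0.28 ± 0.170 in −E−N (n = 2). The parts of pseudocount and TPM in these smaller values were not tested. Uncalled differences between media turned direction, Nebl to −0.24 with log2(TPM + 1) and Gm33027 to 0.24 and 0.25 with the 2 pseudocounts.

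With each library left out, −E−N against −N ranged in FCS/LIF from −3.63 to −2.94 (Mymx), −3.47 to −2.97 (Nebl) and −8.86 to −4.65 (Gm33027), and in 2i/LIF from −0.092 to 0.21, −3.99 to −2.78 and −3.72 to −3.48. The difference between media ranged from −3.65 to −2.95, −0.37 to 0.84 and −4.89 to −0.98, and 2i/LIF against FCS/LIF in −N from 3.05 to 3.38, −1.68 to −1.33 and 0.82 to 1.16. Turned directions, all uncalled, were Mymx in 2i/LIF (−0.092 without −N replicate 1, −0.0086 without −E−N replicate 3) and Nebl between media (−0.23 without −E−N replicate 1 of FCS/LIF, and without 2i/LIF libraries −0.37 for −E−N replicate 1, −0.10 for −E−N replicate 2, −0.0035 for −N replicate 2 and −0.13 for −N replicate 3).

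Several counts of called genes moved by over 1.5 times. For −E−N against −N in FCS/LIF, 1573 became 2556 with no filter, 920 with all 20 libraries in 1 fit, 2568 with no fold limit, 2563 at an adjusted p under 0.05, and 677 to 1365 with a library left out (677 without −E−N replicate 2). In 2i/LIF, 970 became 1581 at 0.05 and 514 to 840 with a library left out (514 without −N replicate 2). For the difference between media, 281 became 706 with DESeq2, 926 with no filter, 123 with the compared groups alone, 467 with log2(TPM + 1), and 88 to 295 with a library left out (88 without −E−N replicate 2 of FCS/LIF). For 2i/LIF against FCS/LIF in −N, 5105 became 4175 to 4840 with a library left out, within 1.5 times. Over the lists, −E against +E+N in 2i/LIF went from 5 to 12 with DESeq2 and to 2 to 3 with a library left out, and in FCS/LIF from 19 to 11 to 19. −E−N against −N went from 37 to 24 to 39 in FCS/LIF and from 24 to 16 to 25 in 2i/LIF.

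Same-numbered libraries deviated together only in part, with correlations of deviations from 0.0361 to 0.360 in FCS/LIF and −0.0126 to 0.572 in 2i/LIF, and 8 of 8 and 11 of 12 libraries correlated best with their own number. In FCS/LIF the 2 libraries of a state deviate as mirror images, so those 8 results are not separate. These correlations hint at pairing, with a mean of 0.332 over the 18 same-numbered pairs of 2i/LIF. Not every pair passed a correlation of 0.1 and no label says what a number shares, so the fits without a block are given. Their p-values take no account of any pairing. With the replicate number as a block, calls went to 1622 in 2i/LIF, 981 for the difference between media and 16 for the lists in −E of 2i/LIF, and no call of the 3 genes changed. The cause of these shifts was not tested. Depth limits Gm33027 in FCS/LIF and Nebl in 2i/LIF, with 0 to 10 counts per library without Dox.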

Other observations

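Gm33027 was the gene of the 3 with a lower level in −N than in +E+N in both media, from 2.91 ± 0.954 to 1.40 ± 0.231 CPM in FCS/LIF (n = 2) and from 6.90 ± 1.16 to 2.68 ± 0.333 CPM in 2i/LIF (n = 3), with no overlap of libraries in either. Called genes that were lower in −E−N than in −N in both media numbered 183 of 13844 tested in both, which is 35.5% of those lower in FCS/LIF and 40.5% of those lower in 2i/LIF. By their calls Nebl and Gm33027 are among them, and Mymx is among the 333 lower in FCS/LIF alone. Nebl and Gm33027 passed the count filter only through the states with Dox, so their place there is not counted as support.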
